A study of Homo sapiens with 12 samples.

Results

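L2 elements (long interspersed element 2) are the decayed remains of a LINE that copied itself through RNA and stopped moving long before the primates arose. The 122628 elements described here are all repeat copies of family L2 and class LINE that had at least a fraction of a read on their own strand in any of 12 libraries, out of 1509971 repeat elements with such reads. A375 human melanoma cells, an established line, were transiently transfected with V5-tagged Clover (a fluorescent protein that serves as the background control), Z18fl (full-length ZC3H18), Z18trunc (a truncated ZC3H18) or Z18truncZnFmut (the truncated protein with aromatic residues of its zinc finger replaced), with 3 libraries for each construct. Labelling with 4-thiouridine began 24 h after transfection, RNA was crosslinked to protein by ultraviolet light, and RNA pulled down with an antibody to V5 was sequenced (PAR-CLIP). The immunoprecipitations were done in triplicate without a stated separate culture for each, so p-values measure the spread between these libraries, which may be technical, and no size selection of the protein was made. All constructs were expressed from pcDNA3.2 plasmids in unedited cells, which keep their own ZC3H18.

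ZC3H18 is a CCCH zinc-finger protein that joins the cap-binding complex of new transcripts to the nuclear exosome, the machine that degrades unwanted nuclear RNA. L2 copies no longer move, and most lie inside introns or between genes, where they are transcribed as part of longer RNAs. MIR elements are SINEs whose 3′ end resembles that of L2 and which are of like age, CR1 is another old LINE family, and L1 is the LINE family that is still active in humans. These 3 families serve as the comparisons below.

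The 5 elements below are named L2 copies of at most 300 bases, in introns or between genes and free of exon bases, and are shown because their counts rose or fell against Clover. Sequences are read from hg38 on the strand of the element, 5′ to 3′, with T for U, and capitals mark runs of 4 or more T (TTTT), since 4-thiouridine enters RNA in place of uridine.
L2a in an intron of the pseudogene GOLGA2P11, chr15:62261581-62261706, minus strand: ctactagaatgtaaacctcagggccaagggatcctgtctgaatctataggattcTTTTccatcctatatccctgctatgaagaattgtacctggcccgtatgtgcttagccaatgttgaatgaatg
L2b in an intron of INTS1, chr7:1472738-1472841, minus strand: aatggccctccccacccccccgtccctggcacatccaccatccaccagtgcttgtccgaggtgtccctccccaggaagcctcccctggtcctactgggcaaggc
L2b between genes, chr20:64041138-64041239, plus strand: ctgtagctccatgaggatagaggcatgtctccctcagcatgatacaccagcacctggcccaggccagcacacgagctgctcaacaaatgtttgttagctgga
L2 in an intron of CCDC200, chr17:43265213-43265327, minus strand: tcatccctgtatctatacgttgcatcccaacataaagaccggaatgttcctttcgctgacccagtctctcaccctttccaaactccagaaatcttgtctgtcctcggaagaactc
L2a in an intron of SMARCA4, chr19:11038427-11038722, plus strand: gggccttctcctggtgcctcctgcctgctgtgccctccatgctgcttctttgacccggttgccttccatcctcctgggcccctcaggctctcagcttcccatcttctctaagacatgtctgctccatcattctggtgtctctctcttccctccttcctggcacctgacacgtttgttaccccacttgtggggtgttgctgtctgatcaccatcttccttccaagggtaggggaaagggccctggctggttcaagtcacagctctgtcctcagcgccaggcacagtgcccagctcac
The first 4 rose in Z18fl and the SMARCA4 element fell. T made up 17.3% to 31.0% of the 5 sequences, and 1 of them held TTTT. Of 34882 L2 elements with reads that were 80 to 160 bases long, 53.9% held TTTT on their own strand and 30.9% on the other strand. These shares are not a matched background. The SMARCA4 sequence has 296 bases, and L2 loci tested in Z18fl had a median AT content of 48.8%, against 57.5% for all with reads.

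Most L2 elements were seen through very few reads. Of the 122628, 95364 (77.8%) had at most 3 counts over all 12 libraries, while 9320 (7.6%) had at least 10 and held 61.4% of L2 counts, and 18 elements with at least 1000 counts held 11.6%. The elements were short and old, with a median length of 248 bases, a median divergence from the consensus of 31.2% and a median AT content of 57.5%. By the annotation (GENCODE 44), 51107 lay in introns on the strand of the gene, 3178 lay for at least 50% of their length in exons, 32138 were antisense to a gene and 36205 lay between genes. Exons thus held 2.59% of the elements, but 31.8% ± 2.02 (SD, n = 3) of L2 counts in Clover.

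The libraries held 16683132 to 25686948 aligned fragments, with the 3 Clover libraries the shallowest, and 30468 to 133068 L2 counts. Z18truncZnFmut replicate 3 stood apart: reads over elements on both strands came to 16.3% of its aligned fragments, against 6.28% to 9.59% in the other 11, and it listed 71940 L2 elements with reads, against 8695 to 25013. Z18trunc replicate 3 listed the 25013. Between 67.8% and 78.7% of L2 counts came from uniquely mapping reads. Of the L2 reads on both strands, 34.9% to 48.2% lay on the strand of the element. L2 counts below are of that strand unless either strand is named.

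Summed over all L2 elements, the Clover libraries held 1945, 1781 and 1820 CPM (counts divided by the aligned fragments of the library and multiplied by 1000000). Z18fl libraries held 2080, 2130 and 2129 CPM, Z18trunc libraries 1995, 2115 and 2443, and Z18truncZnFmut libraries 1893, 2103 and 5495. All Z18fl and Z18trunc libraries lay above every Clover library, by 264 and 335 CPM on average (206 CPM for Z18trunc without its replicate 3), and Z18truncZnFmut overlapped Clover through replicate 1. The exact permutation p of the first 2 differences was 0.1 (two-sided), the smallest that 3 against 3 can give, and 0.2125 after Benjamini-Hochberg adjustment over 85 such tests. As a share of the counts of all repeat elements L2 was lower than in Clover in Z18fl and Z18trunc. Clover had 4.68% ± 0.0882 (SD, n = 3), Z18fl 4.07% ± 0.230, Z18trunc 3.83% ± 0.321 and Z18truncZnFmut 4.58% ± 1.34. The libraries of the last lay on both sides of Clover, at 3.56%, 4.08% and 6.09%, and its difference from Clover was -0.86 percentage points without replicate 3 and 0.41 without replicate 1.

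The libraries differed in where in genes the L2 reads lay. Clover libraries had 885, 785 and 803 CPM of L2 counts in introns, those of Z18fl 1165, 1160 and 1179, those of Z18trunc 1038, 1120 and 1179, and those of Z18truncZnFmut 919, 1071 and 2110. The 9 ZC3H18 libraries were thus all higher than the 3 of Clover. In exons Clover libraries had 582, 560 and 618 CPM, those of Z18fl 471, 496 and 489, those of Z18trunc 515, 519 and 479, and those of Z18truncZnFmut 533, 511 and 524, all lower than Clover. Each of these 6 differences had an exact permutation p of 0.1 (0.2125 after Benjamini-Hochberg adjustment over 85 tests). L2 counts antisense to genes and between genes lay at 202 to 256 CPM and 199 to 265 CPM in 10 libraries. They were 383 and 402 CPM in Z18trunc replicate 3 and 1350 and 1510 CPM in Z18truncZnFmut replicate 3. Intron counts were also highest in Z18truncZnFmut replicate 3, and without it the intron difference of that construct from Clover was 171 CPM, against 543 with it. Exon counts of these libraries, 479 and 524 CPM, stayed below Clover.

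**Figure D1:**
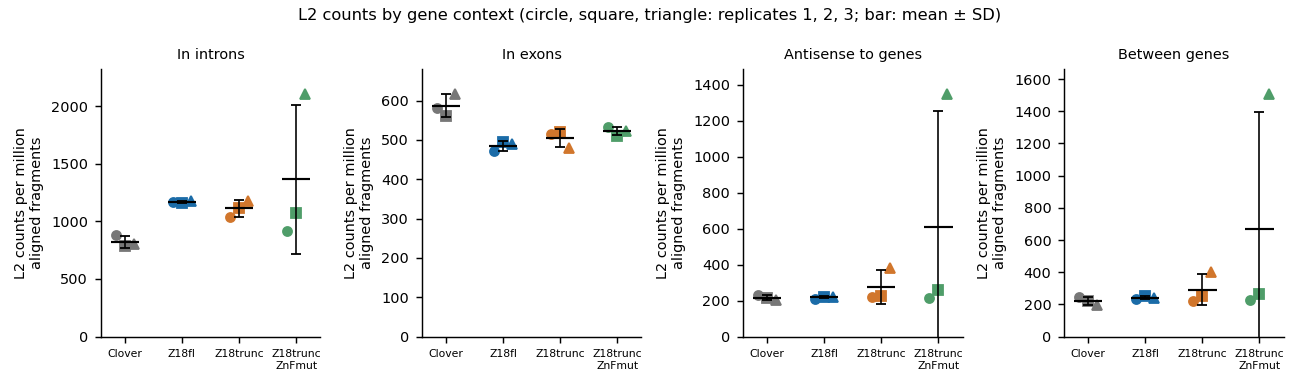
L2 counts (CPM, relative to the aligned fragments) in each library, split by where the element lies relative to genes on its strand. Points are libraries and bars are mean ± SD of 3 (bars that pass 0 are cut at the axis). Intron counts of all ZC3H18 libraries sit above Clover and exon counts below it, and the antisense and intergenic counts of Z18truncZnFmut replicate 3 (1350 and 1510) stand far above the rest.

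As a share of L2 counts, introns held 44.6% ± 0.805 (SD, n = 3) in Clover and 55.3% ± 0.793 in Z18fl. The intron share was 51.1% ± 2.49 in Z18trunc and 46.0% ± 6.66 in Z18truncZnFmut, in which replicates 1 and 2 had 48.6% and 50.9% and replicate 3 had 38.4%. Exons held 31.8% ± 2.02, 23.0% ± 0.300, 23.3% ± 3.29 and 20.7% ± 9.84 in the same order of groups. Intron shares were also higher in Z18fl in the comparison families, with MIR at 40.7% in introns in Clover and 53.1% in Z18fl, and L1 at 44.7% and 56.9%.

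L2 counts were lower relative to L1 in every construct. The log2 ratio of L2 to L1 counts, which does not depend on how libraries are scaled, was -2.10, -1.99 and -2.01 in the Clover libraries. Z18fl libraries had -2.74, -2.64 and -2.99, Z18trunc libraries -3.16, -3.11 and -2.81, and Z18truncZnFmut libraries -2.95, -2.65 and -2.39. All 9 ZC3H18 libraries lay below all Clover libraries (exact permutation p = 0.1 for each construct, 0.2125 adjusted). Of LINE counts L2 made up 18.9% ± 0.580 (SD, n = 3) in Clover. Its share was 12.3% ± 1.30 with Z18fl, 10.7% ± 1.24 with Z18trunc and 13.3% ± 2.23 with Z18truncZnFmut. Within introns alone the ratio showed the same order, with means of -2.04, -2.83, -3.14 and -2.69. Against the 2 older families the differences were smaller. For Clover, Z18fl, Z18trunc and Z18truncZnFmut in turn, the log2 ratio of L2 to MIR counts averaged -0.64, -0.78, -0.68 and -0.48, and that of L2 to CR1 counts 2.62, 2.37, 2.47 and 2.64. Z18fl lay below Clover without overlap in both, while Z18truncZnFmut overlapped Clover, with its replicate 3 the highest library in each.

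**Figure D2:**
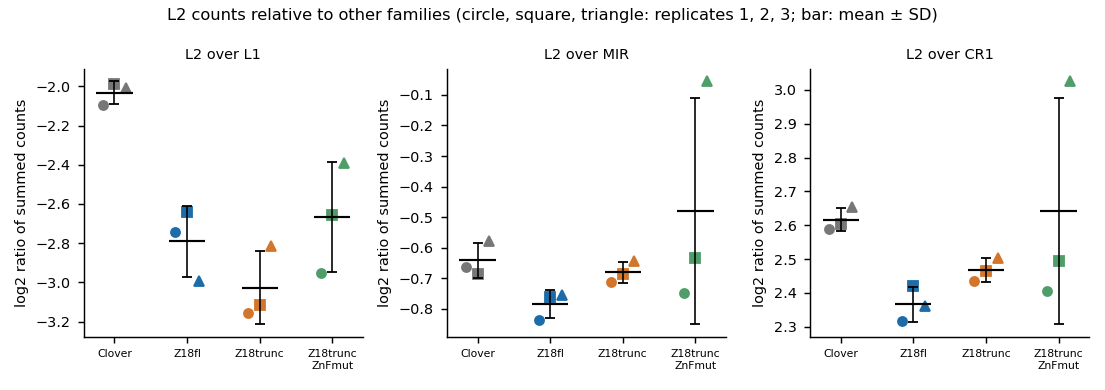
Log2 ratio of summed L2 counts to L1, MIR and CR1 counts in each library, with mean ± SD of 3. Against L1 all 9 ZC3H18 libraries (-3.16 to -2.39) lie below the 3 Clover libraries (-2.10 to -1.99), whereas against MIR and CR1 the shifts are small, and Z18truncZnFmut replicate 3 is the highest.

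Base composition was compared because L1 copies are richer in A and T than L2 copies. Intron elements were binned by AT content and their counts summed. Among L2 elements the log2 ratio of the Z18fl mean to the Clover mean was 0.43 below 45% AT, 0.35 from 45% to 55%, 0.69 from 55% to 65% and 0.79 at 65% or more. For MIR it was 0.54, 0.71, 0.79 and 0.86 in the same bins, and for L1 1.19, 1.18, 1.29 and 1.43. In Z18fl the L2 value was thus the lowest of the 3 families and the L1 value the highest in each bin. In Z18trunc the L2 values were 0.26, 0.29, 0.65 and 0.81 (0.22, 0.26, 0.60 and 0.62 without replicate 3), against 0.34, 0.51, 0.63 and 0.84 for MIR and 1.31, 1.25, 1.54 and 1.66 for L1, so that L2 lay above MIR from 55% to 65% AT. In Z18truncZnFmut they were 0.30, 0.47, 1.11 and 1.52, and 0.24, 0.20, 0.37 and 0.28 without replicate 3. The steady rise with AT content in that group was thus seen only with replicate 3, and without it the values varied little and unevenly. MIR gave 0.30, 0.48, 0.82 and 1.28, below L2 in the bins from 55% AT up, and 0.31, 0.38, 0.43 and 0.46 without replicate 3, above L2 in each bin. L1 gave 1.05, 0.93, 1.12 and 1.13 without it. These are sums over 2795 to 28743 L2 elements a bin, given as a description with no test.

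**Figure D3:**
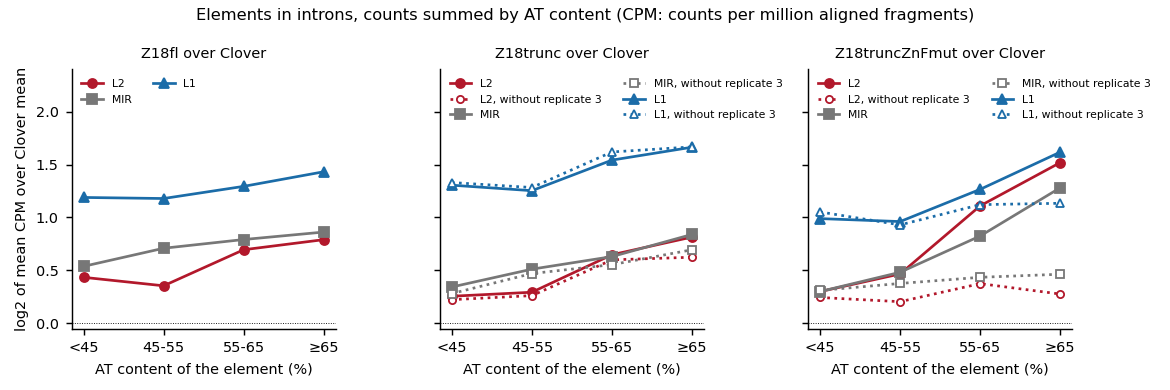
Log2 of mean CPM over the Clover mean for intron elements of L2, MIR and L1, by AT content of the element (under 45% to 65% or more). Filled points use all 3 libraries, and open points and dotted lines leave out replicate 3. In Z18fl L2 runs from 0.35 to 0.79, MIR from 0.54 to 0.86 and L1 from 1.18 to 1.43.

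The ratio also varied with the length and divergence of the intron copies. For elements under 150 bases the log2 ratio of the Z18fl mean to the Clover mean was 0.75, against 0.55 from 150 to 300 bases, 0.33 from 300 to 600 bases and 0.45 for those of 600 bases or more. By divergence from the consensus it was 0.30 under 27%, then 0.48 and 0.56, and 0.62 at 33% or more. These too are sums, given with no test. Z18trunc gave 0.62, 0.44, 0.31 and 0.43 by length, and 0.29, 0.44, 0.47 and 0.51 by divergence.

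The 4 subfamilies named next carried the L2 counts: L2a with 46123 elements and 35.1% of the counts, L2c with 34560 and 28.3%, L2b with 24004 and 23.6%, and the subfamily named L2 with 17192 and 12.6%. L2-3_Crp (475 elements), L2-1_AMi (234), UCON49 (15), UCON86 (13) and L2-1_Crp (12) were rare, and L2-3_AMi had reads only on its other strand. In counts summed by subfamily and scaled by TMM (trimmed mean of M values, which assumes that most subfamilies do not change), L2b fell in Z18fl by 0.38 ± 0.060 on the log2 scale (SE, edgeR adjusted p = 9.9e-05), L2c by 0.33 ± 0.060 (adjusted p = 0.00034) and L2a by 0.21 ± 0.057 (adjusted p = 0.0061). The subfamily L2 had a log2 fold change of -0.13 ± 0.066 (adjusted p = 0.13), and was called with unique reads alone (-0.20, edgeR adjusted p = 0.022). These calls stand beside 20.1% of 915 repeat subfamilies called lower and 20.1% called higher in that comparison. In Z18trunc L2b fell by 0.37 ± 0.094 (edgeR adjusted p = 0.0057) and L2c by 0.30 ± 0.092 (adjusted p = 0.020), beside 11.9% of 925 subfamilies called lower, and L2a had -0.18 ± 0.091 (adjusted p = 0.18). The L2b call was lost without Clover replicate 3 (edgeR adjusted p = 0.093). The L2c call was lost without any 1 library but Z18trunc replicate 3 (0.051 to 0.19 by edgeR) and with the replicate block (0.076). Without Z18trunc replicate 3 L2a was called (-0.15, edgeR adjusted p = 0.027). In Z18truncZnFmut no L2 subfamily was called, with adjusted p from 0.34 to 0.93 by edgeR among the 6 tested, where 0.0% of 921 subfamilies were called lower. Without its replicate 3 L2c (-0.30, edgeR adjusted p = 0.0054) and L2b (-0.25, 0.033) were called lower. L2-3_Crp and L2-1_AMi were not called against Clover in any construct on this scale, though L2-3_Crp was higher by aligned fragments in Z18fl (0.50, edgeR adjusted p = 0.042) and Z18trunc (0.61, 0.049).

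The subfamily calls depended on the strand and the direction on the scale. With reads on either strand L2b and L2c were not called in Z18fl (-0.11 and -0.058, edgeR adjusted p = 0.072 and 0.35) or in Z18trunc (-0.14 and -0.068, 0.23 and 0.60). With library sizes from aligned fragments in place of TMM all 4 main subfamilies turned positive in Z18fl, at 0.34 for L2 (edgeR adjusted p = 0.0018), 0.26 for L2a (0.0069), 0.14 for L2c (0.095) and 0.095 for L2b (0.26). L2b was the lowest and the subfamily L2 the highest of the 4 under both scales. A change of library sizes moves all rows by about the same amount, so it could not turn this order. The direction of the family sum also depended on the scale. Scaled by the TMM factors of the single loci, L2 had a log2 fold change of -0.17 ± 0.061 in Z18fl (SE, edgeR adjusted p = 0.019), -0.10 ± 0.098 in Z18trunc (0.70) and 0.60 ± 0.44 in Z18truncZnFmut (0.42, and -0.096 without replicate 3), where 20.5%, 10.3% and 0.0% of 39 families were called lower. The Z18fl call was lost without any 1 Z18fl library (-0.016, -0.068 and 0.0097 without replicates 1, 2 and 3), and Z18trunc passed the test without its replicate 3 (-0.18, edgeR adjusted p = 0.019) and turned positive without replicate 1 or 2 (0.075 and 0.032). Z18truncZnFmut was called without its replicate 1 (1.01, edgeR adjusted p = 0.049). By aligned fragments it was 0.19 ± 0.065 (adjusted p = 0.0063), 0.24 ± 0.079 (0.026) and 0.77 ± 0.41 (0.20). L1 rose under both scales in Z18fl, by 0.59 and 0.96, and in Z18trunc, by 0.88 and 1.23.

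Single L2 loci were then tested among all repeat loci with enough reads. In Z18fl against Clover 355 L2 loci passed the filter on low counts, 0.29% of the 122628, and held 31.4% of L2 counts in these libraries. Of them 44 were higher and 126 lower (edgeR quasi-likelihood test, adjusted p under 0.05), beside 28.3% of all 12098 loci higher and 24.6% lower, so 12.4% and 35.5% of L2 loci. MIR loci had 17.3% higher and 33.6% lower, CR1 loci 10.8% and 28.9%, and L1 loci 52.5% and 8.24%. The median log2 fold change was -0.52 for L2 loci and 0.0084 for all loci. When aligned fragments set the library sizes, the medians were -0.17 and 0.37, with 61 L2 loci higher and 67 lower. The distance between the medians was -0.53 on the TMM scale and -0.54 on this one, but a change of library sizes moves both medians alike. With reads on either strand the distance was -0.081. Without Z18fl replicate 3 the lower loci numbered 83. Of the 355, 151 passed the filter level in every library of both groups, 65 in every library of Z18fl only and 71 in every library of Clover only, so that many loci were tested because 1 group was high.

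The calls divided by gene context. Of 141 L2 loci tested in introns 31 were higher and 31 lower, with a median log2 fold change of -0.0061. All intron loci of the repeat classes had 41.8% higher and 12.8% lower, with a median of 0.64. Intron loci of L1 had 65.3% higher and 4.26% lower, those of MIR 25.8% and 24.4%, and those of CR1 24.0% and 24.0%. The near-even split of L2 intron loci was thus shared by MIR and CR1. Of 158 L2 loci in exons 9 were higher and 65 lower, with a median of -0.63. All exon loci had 11.5% higher, 42.4% lower and a median of -0.62. Antisense to genes 2 of 29 L2 loci were higher and 14 lower, beside 18.8% and 28.1% of all such loci, and between genes 2 of 27 were higher and 16 lower, beside 28.1% and 22.1%. The 44 higher loci had a median AT content of 46.5% and the 126 lower loci 49.3%, both under the 57.5% of all L2 elements with reads, as were the 355 tested (48.8%).

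**Figure D4:**
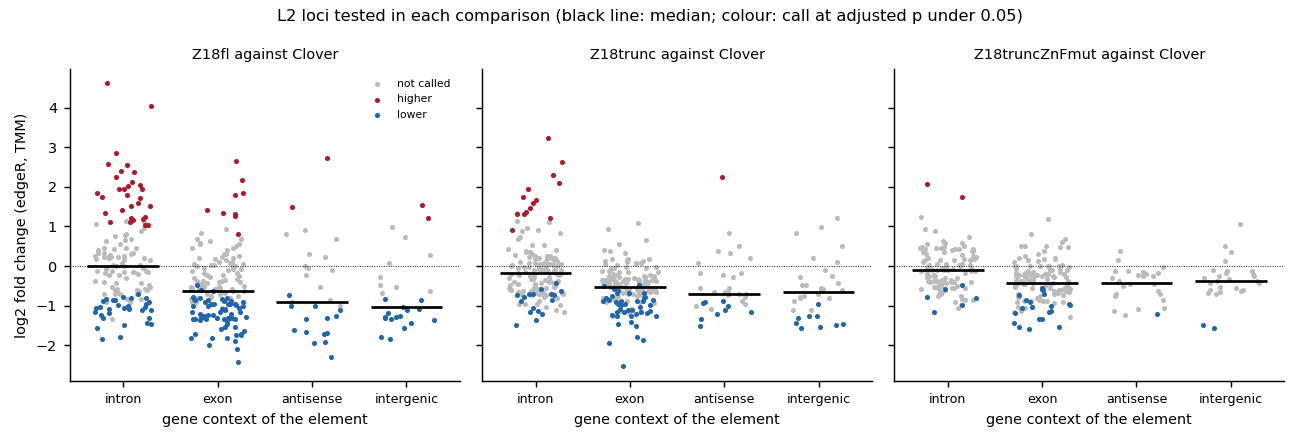
Log2 fold change (edgeR, TMM scale) of each L2 locus tested against Clover, by gene context. Points are loci, coloured by call, and black lines are medians. In Z18fl intron loci spread on both sides of 0 (31 higher, 31 lower), exon loci lie mostly below it (9 higher, 65 lower), and few loci are called in Z18truncZnFmut.

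In Z18trunc against Clover 382 L2 loci were tested, of which 15 were higher and 78 lower (edgeR), beside 22.5% of 13204 loci higher and 13.4% lower. The shares were 3.93% and 20.4% for L2, 5.66% and 22.5% for MIR, 3.49% and 23.3% for CR1, and 54.8% and 3.82% for L1. Antisense to genes 1 of 34 L2 loci was higher and 9 lower, beside 16% and 14.3%. Between genes 0 of 34 L2 loci were higher and 9 lower, beside 23.5% and 10.2%. The rest of the 15 lay in introns, where 14 of 149 L2 loci were higher and 17 lower, beside 35.4% and 6.01% of all intron loci. Of 165 exon loci 0 were higher and 43 lower, beside 4.08% and 26.6%. The median was -0.47 for L2 loci and -0.033 for all, a distance of -0.44 that was -0.13 with reads on either strand. With aligned fragments as library sizes 23 were higher and 27 lower. Without Z18trunc replicates 1, 2 and 3 the higher loci numbered 4, 9 and 5, and without replicates 1 and 2 the lower loci numbered 44 and 45. In Z18truncZnFmut against Clover 302 L2 loci were tested, with 2 higher and 30 lower (edgeR), beside 12.3% of 10152 loci higher and 4.83% lower. The shares were 0.662% and 9.93% for L2, 1.59% and 12.4% for MIR, 0.0% and 10.6% for CR1, and 39.1% and 1.29% for L1. In introns 2 of 109 L2 loci were higher and 6 lower, beside 21.3% and 1.76%. In exons 0 of 140 L2 loci were higher and 21 lower, beside 0.914% and 10.7%. Antisense to genes 0 of 26 were higher and 1 lower (8.16% and 2.69% of all), and between genes 0 of 27 were higher and 2 lower (15.4% and 2.2%). With aligned fragments as library sizes 3 were higher and 11 lower. Without Z18truncZnFmut replicates 1, 2 and 3 the lower loci numbered 13, 18 and 19, and without Clover replicate 3 they numbered 18. Of the 302 loci, 3 passed the filter level in every Z18truncZnFmut library only and 112 in every Clover library only. Of the 382 tested for Z18trunc, 36 passed it in every Z18trunc library only and 104 in every Clover library only. Many loci were thus tested because Clover was high, so the excess of lower calls is not independent of the filter. Whether the constructs differ from each other is not read from these counts of calls, which share the Clover libraries, but from the direct comparisons below.

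Loci were named by a rule on size, depth and non-overlapping libraries, which left out loci with under 20 mean counts in the higher group, among them L2a copies in introns of YARS1 (0, 0 and 1 counts in Clover and 15, 14 and 27 in Z18fl) and ZNF622 (0, 3 and 0 in Clover and 14, 19 and 21 in Z18trunc). Only the MYH7B, LY6E, C8orf33 and MKI67 elements and the one between genes on chromosome 20 met its further limit, a mean score of at least 90 from the read assignment in the higher group, so the other elements with a rise or fall named here were chosen without that limit and after values were seen. All coordinates are hg38.

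Among rises in Z18fl, the L2a copy in GOLGA2P11 (sequence above) had 3, 0 and 2 counts in Clover, 46, 59 and 50.4 in Z18fl, 22, 21 and 14 with Z18trunc, and 3, 12 and 15 with Z18truncZnFmut. Its log2 fold change was 4.05 ± 0.51 in Z18fl (SE, edgeR adjusted p = 5.8e-06) and 2.62 ± 0.65 in Z18trunc (0.0035). The L2b copy antisense to MYH7B, a myosin heavy chain gene (chr20:34994796-34994943, minus strand), had 3, 1 and 3 counts in Clover, 25, 33 and 28 in Z18fl, 22, 19 and 20 with Z18trunc, and 7, 12 and 9 with Z18truncZnFmut. It rose by 2.74 ± 0.52 in Z18fl (edgeR adjusted p = 0.00028) and by 2.26 ± 0.55 in Z18trunc (0.0030). At both elements every Z18fl and Z18trunc library lay above every Clover library. Both, and the INTS1, ATP2C2-AS1 and CCDC200 elements below, lay under the filter level in every Clover library. They were tested against Clover because the ZC3H18 libraries were high, so their adjusted p-values are not independent of the filter. The L2b copy in INTS1, which encodes a subunit of the Integrator complex that cleaves nascent RNA, had 7, 3 and 3 counts in Clover and 46, 52 and 43 in Z18fl (log2 fold change 2.58 ± 0.41, edgeR adjusted p = 5.7e-05), and 16, 17 and 12 in Z18trunc (0.95 ± 0.52, 0.17). The L2b copy in ATP2C2-AS1, a long non-coding RNA (chr16:84460823-84461055, 71 of its bases in exons), went from 2, 2 and 3 to 25, 19 and 25 counts in Z18fl (2.41 ± 0.50, edgeR adjusted p = 0.00067). The L2b copy in HSPA4, a chaperone gene (chr5:133052684-133052789, 21 of its bases in exons), went from 0, 8 and 1 to 30, 24 and 32 (2.37 ± 0.61, 0.0035). The CCDC200 copy went from 6.12, 3.73 and 3.75 to 34.0, 64.7 and 89.1 counts (2.86 ± 0.41, edgeR adjusted p = 2.2e-05), but 0.653% of its counts were unique, so its reads could belong to other copies. The element between genes on chromosome 20 had 8, 5 and 2 counts in Clover and 24, 16 and 23 in Z18fl (1.21 ± 0.48, edgeR adjusted p = 0.041). That call was lost in 5 of the 10 alternative settings that gave it an adjusted p, DESeq2 among them.

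Copies in introns of protein-coding genes also rose in Z18trunc. The L2a copy in SERTAD1, a regulator of cell cycle transcription (chr19:40424526-40425238, minus strand), had 8, 11 and 10 counts in Clover, 56, 69 and 76 in Z18fl, 88, 85 and 82 with Z18trunc, and 82, 42 and 72 with Z18truncZnFmut. It rose by 1.94 ± 0.30, 2.30 ± 0.28 and 2.08 ± 0.33 (edgeR adjusted p = 4.1e-05, 3.8e-06 and 7.7e-05). The L2a copy in FDXR, which encodes the mitochondrial ferredoxin reductase (chr17:74865129-74865557), rose in all 3 constructs as well, from 3, 6 and 6 counts in Clover to 40, 29 and 37, to 35, 60 and 21, and to 26, 20 and 33 (log2 fold changes 1.96, 2.09 and 1.73, edgeR adjusted p = 0.00060, 0.0015 and 0.012). These were the only 2 L2 loci called higher in Z18truncZnFmut, and the FDXR call there was lost without Clover replicate 1 or without Z18truncZnFmut replicate 3. In Z18trunc 3 further intron copies rose: one in GTF2IRD1, a transcription factor gene (1.94 ± 0.59, edgeR adjusted p = 0.015), one in B3GAT3, which encodes a glycosaminoglycan linker enzyme, with 144 of its bases in exons (1.75 ± 0.57, 0.022), and one in RBCK1, which encodes a part of the linear ubiquitin ligase (1.60 ± 0.50, 0.016). These 3 calls were each lost without 1 or more of the Clover libraries, and all 3 copies were called higher in Z18fl too. The FDXR, GTF2IRD1 and RBCK1 elements also lay under the filter level in every Clover library, so the same limit applies to their adjusted p-values.

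Falls were named in every gene context, and the 6 most abundant copies were all called lower in Z18fl. Among tested exon L2 loci 41.1% were lower in Z18fl, near the 42.4% of all exon loci. The L2b copy in the untranslated exon of TEX261 (chr2:70985937-70987135, minus strand) had the highest mean level of all L2 elements. Its mean was 96.4 CPM in Clover, and 37.2, 55.2 and 73.3 CPM with Z18fl, Z18trunc and Z18truncZnFmut, from 1522, 1554 and 1892 counts, 833, 885 and 951, 1478, 1385 and 1091, and 1804, 1668 and 1622. It fell by 1.74 ± 0.12 in Z18fl (SE, edgeR adjusted p = 4.6e-09), by 1.16 ± 0.11 in Z18trunc (2.7e-07) and by 0.59 ± 0.14 in Z18truncZnFmut (0.0045, not called when scaled by aligned fragments), and no construct's libraries overlapped Clover. The L2c copy in SRRM2, which encodes a splicing scaffold protein (chr16:2769421-2770193), had 1288 to 1661 counts a library and fell by 0.99, 0.80 and 0.73 (SE 0.11, 0.10 and 0.14, edgeR adjusted p = 1.4e-06, 5.2e-06 and 0.00060). The L2a copy in an intron of LRP1, an endocytic receptor gene (chr12:57160172-57160751), fell in all 3 constructs (log2 fold changes -1.18, -0.86 and -0.9957, edgeR adjusted p = 6.8e-07, 1.9e-05 and 5.5e-05). The next 3 by level lay in ZSWIM8, CANX (calnexin) and NUP62 (a nuclear pore protein), and fell in Z18fl by 0.81, 0.47 and 0.97 (edgeR adjusted p = 4.7e-05, 0.0082 and 0.00014). The CANX call was lost with library sizes from aligned fragments and without Z18fl replicate 2 or 3.

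**Figure D5:**
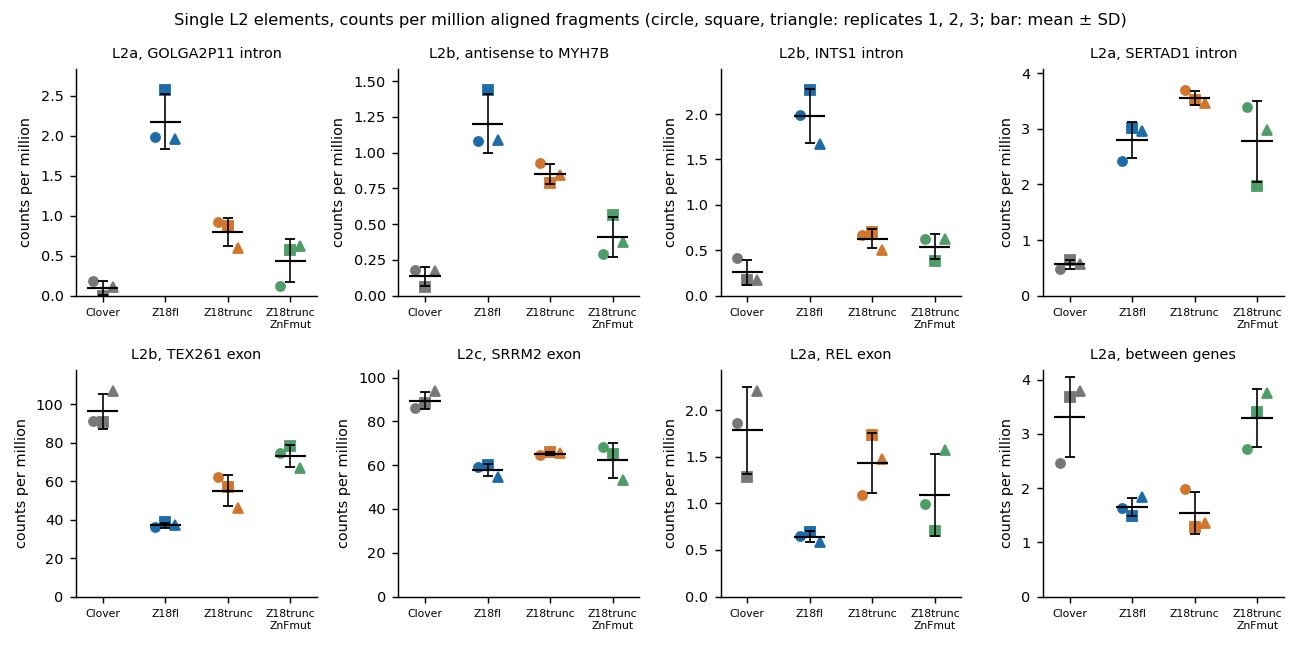
CPM (relative to aligned fragments) at 8 named L2 elements in each library, with mean ± SD of 3. The GOLGA2P11, MYH7B and INTS1 elements are highest in Z18fl, the SERTAD1 element is high in all 3 constructs, the TEX261 and SRRM2 elements are lower in every construct than in Clover, and the element between genes on chromosome 1 has means of 3.29 in Z18truncZnFmut and 3.31 in Clover.

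Lower L2 loci of more moderate depth included the L2c copy antisense to MTX1P1 (chr1:155231271-155231369), with 22, 42 and 36 counts in Clover and 16, 7 and 13 in Z18fl (log2 fold change -2.31 ± 0.36, edgeR adjusted p = 4.8e-05), the copy in an exon of ZNF583, a zinc-finger gene (-2.01 ± 0.34, 0.00010), and an L2a copy between genes on chromosome 19 (chr19:3768731-3769084), which fell in all 3 constructs, by 1.85 ± 0.29, 1.32 ± 0.28 and 1.58 ± 0.32 (edgeR adjusted p = 4.8e-05, 0.0010 and 0.0011). The SMARCA4 copy, in a gene for a chromatin remodelling ATPase, had 32, 31 and 25 counts in Clover, 15, 20 and 21 in Z18fl, 18, 24 and 13 with Z18trunc, and 40, 37 and 27 with Z18truncZnFmut. It fell in Z18fl and Z18trunc (log2 fold changes -1.49 ± 0.30 and -1.502 ± 0.316, edgeR adjusted p = 0.00052 and 0.00094) and was not called in Z18truncZnFmut (-0.39 ± 0.30, 0.43). The L2c copy in an exon of TMEM222 fell in all 3 constructs (log2 fold changes -1.54, -1.51 and -1.34, edgeR adjusted p = 0.00099, 0.0033 and 0.019, the last lost in 4 of 12 alternative settings). The L2c copy in the untranslated exon of PML, the organiser of PML nuclear bodies, fell in Z18fl and Z18truncZnFmut (-1.22 ± 0.28 and -1.45 ± 0.33, edgeR adjusted p = 0.0015 and 0.0025). The L2b copy in an intron of LY6E fell by 0.90 ± 0.16 in Z18fl and 0.70 ± 0.15 in Z18trunc (edgeR adjusted p = 0.00017 and 0.0015, the second lost with library sizes from aligned fragments).

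The truncation was tested by comparing Z18trunc with Z18fl. Of 543 L2 loci, 2 were higher and 15 lower (edgeR), beside 2.62% of 19413 loci higher and 3.13% lower, so the shares were 0.368% and 2.76%. Without Z18fl replicates 1 and 2 the lower loci numbered 8 and 6, and without Z18trunc replicates 1 and 2 they numbered 5 and 9. Of the 543, 57 passed the filter level in every Z18trunc library only and 133 in every Z18fl library only. Many loci were thus tested because Z18fl was high, so the excess of lower calls is not independent of the filter. Among the elements that rose in Z18fl, 4 were lower in Z18trunc: ATP2C2-AS1, with 4, 5 and 5 counts against 25, 19 and 25 (log2 fold change -2.34 ± 0.41, edgeR adjusted p = 0.0016), INTS1 (-1.73 ± 0.28, 0.00082), CCDC200 (-1.65 ± 0.29, 0.0018) and GOLGA2P11 (-1.53 ± 0.27, 0.0016). These 4 had been named for high counts in the same Z18fl libraries. That choice favours a fall in this comparison, so the 4 falls are not independent evidence. Copies in the untranslated exons of C8orf33 (-1.21 ± 0.24, edgeR adjusted p = 0.0046) and of MKI67, the gene of the Ki-67 proliferation antigen (-1.03 ± 0.28, 0.033), were lower too, the MKI67 call being lost in 8 of 12 alternative settings. The 2 that were higher lay in untranslated exons of TEX261 (0.48 ± 0.11, edgeR adjusted p = 0.015) and REL, an NF-kB subunit gene (1.08 ± 0.30, 0.036, lost in 8 of 12 alternative settings), and the TEX261 call was lost without Z18fl replicate 1 or Z18trunc replicate 1. In introns 0 of 240 were higher and 9 lower, beside 1.96% and 2.93%, and in exons 2 of 204 were higher and 6 lower, beside 3.06% and 3.95%. None of 55 antisense loci (3.96% and 2.75% of all) or 44 between genes (3.23% and 2.8%) was called by edgeR, and 13 and 7 of them had an unadjusted p under 0.05. The log2 ratio of L2 to L1 counts overlapped between the constructs (exact permutation p = 0.2), and those to MIR and CR1 were higher in every Z18trunc library than in any Z18fl library (differences of 0.10 and 0.10, exact permutation p = 0.1), and no L2 subfamily was called (edgeR adjusted p from 0.81 to 1.0), beside 1.48% of 948 subfamilies higher and 2.43% lower.

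The zinc-finger residues were tested by comparing Z18truncZnFmut with Z18trunc. Of 453 L2 loci, 3 were higher and 0 lower (edgeR), where 43 and 11 had an unadjusted p under 0.05, beside 0.368% of 16833 loci higher and 0.351% lower, and DESeq2 also gave 0 lower. Of the 453, 30 passed the filter level in every Z18truncZnFmut library only and 117 in every Z18trunc library only, so here too the calls are not independent of the filter. The TEX261 copy was higher (0.59 ± 0.13, edgeR adjusted p = 0.033). So was an L2a copy between genes on chromosome 1 (chr1:68393843-68394436), with 41, 63 and 67 counts in Clover, 38, 34 and 47 in Z18fl, 47, 31 and 32 with Z18trunc, and 65.7, 72.6 and 91 in Z18truncZnFmut. It rose by 1.29 ± 0.25 (edgeR adjusted p = 0.019) over Z18trunc and differed from Clover by -0.20 ± 0.24 (0.64), and its Z18truncZnFmut libraries lay among those of Clover. Both calls were lost when any 1 Z18trunc library was left out. The third, chosen after its values were seen, was an L2c copy in an intron of ST7 (chr7:117120378-117120753), with 0, 0 and 0 counts in Z18trunc and 11, 19 and 23 in Z18truncZnFmut (edgeR adjusted p = 0.0021), and 6, 8 and 1 in Clover. The ST7 copy was tested only because Z18truncZnFmut was high, so its adjusted p is not independent of the filter. The family sum differed by 0.72 ± 0.46 (edgeR adjusted p = 0.41), and by 0.015 without Z18truncZnFmut replicate 3.

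Some L2 copies also overlap miRNA genes. Of 13 L2 elements with reads that overlap an annotated miRNA gene on their own strand, 4 had at least 10 counts over the 12 libraries: one at MIR6745 in PACSIN3 with 22 counts, one at MIR4750 in TBC1D17 with 11, one at MIR1249 in KIAA0930 with 14, and one at MIR421 and MIR374B in the long non-coding RNA FTX with 32. The counts cover the whole element and not the mature miRNA, whose reads were not analysed here. The MIR6745 and MIR4750 elements had no count in any Clover library and 5, 2 and 3, and 2, 4 and 2, in Z18fl. None of the 4 had enough reads to be tested.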

How the data were processed

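The 12 deposited tables list repeat elements of hg38 with reads per library. Per the labels and the study's methods, the authors trimmed reads with cutadapt 4.6 and assigned them to single elements with SQuIRE, whose version and aligner are not given in the sources used here, and tested with DESeq2. The deposited values used are counts of unique reads, expected counts (unique reads plus shares of multimapping reads, rounded here for the tests), aligned fragments per library as counts, and a confidence score in percent. The FPKM values of the authors were not used. L2 rows on the strand of the element were taken. Gene context came from GENCODE 44, an exon element having at least 50% of its length in exons of its own strand. In 5 comparisons edgeR 4.0.16 (R 4.3.3) quasi-likelihood tests were run over all loci of 6 repeat classes, with TMM, a minimum count of 10 and minimum total of 15 (filterByExpr), and Benjamini-Hochberg adjusted p under 0.05. The SE given with edgeR values is the absolute log2 fold change divided by the square root of the F statistic of the test. The scripts were tested on simulated data. Sums by family took TMM factors from the loci, and sums by subfamily had their own. Per-library values had two-sided exact permutation tests (scipy 1.17.1). Named loci were the 6 largest rises and 3 largest falls against Clover, and 2 of each in the other comparisons, among called loci whose groups did not overlap in CPM (per 1000000 aligned fragments) and whose higher group averaged 20 counts or more and a score of 90 or more, plus the 6 highest levels and elements on miRNA genes with at least 10 counts. The rule was repeated without the score limit after the data were seen. The counts by context and the AT bins were also added then. Alternatives were DESeq2 1.42.0, library sizes from aligned fragments, no filter, either strand, unique reads, every repeat class, a fit of all 12 libraries, the replicate number as a block, and each library left out. Depth was 16683132 to 25686948 aligned fragments, and totals of single libraries were given without an error estimate. The members and lists were chosen with earlier results of these data known.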

Additional observations from a re-analysis of the deposited data

Results flagged for a closer look

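L2 reads on the strand opposite to the element entered the comparisons above only in the setting of reads on either strand. They lay above the control in each construct. Per 1000000 aligned fragments they came to 2864, 2515 and 2543 counts in the Clover libraries (mean 2640 ± 194, SD, n = 3). The means were 3703 ± 168 with Z18fl, 3827 ± 472 with Z18trunc and 4275 ± 1417 with Z18truncZnFmut, whose libraries had 3416, 3499 and 5911. No test was made of this difference.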

How the results depend on the processing

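Counts of called L2 loci depended on the settings more than any other result. Against Clover in Z18fl (44 higher and 126 lower as reported) either strand gave 225 higher and 250 lower, unique reads 29 higher, and DESeq2, aligned fragments and no filter on low counts gave 83, 67 and 32 lower. For Z18trunc (15 and 78) DESeq2, unique reads, aligned fragments and either strand gave 8, 8, 23 and 113 higher, and DESeq2, aligned fragments, no filter, either strand and 1 fit of all 12 libraries gave 48, 27, 4, 118 and 119 lower. For Z18truncZnFmut (2 and 30) no filter, either strand, unique reads, the fit of 12 libraries and unadjusted p gave 5, 12, 1, 8 and 6 higher, and aligned fragments, no filter, the fit of 12 and unadjusted p gave 11, 0, 75 and 67 lower. For Z18trunc against Z18fl (2 and 15) no filter, either strand, unique reads, every repeat class, the fit of 12, the replicate block and unadjusted p gave 0, 20, 6, 1, 1, 1 and 35 higher, and DESeq2, no filter, either strand, the fit of 12 and unadjusted p gave 6, 7, 35, 6 and 73 lower. For Z18truncZnFmut against Z18trunc (3 and 0) unique reads and unadjusted p gave 5 and 43 higher, and aligned fragments and unadjusted p 1 and 11 lower. With 1 library left out the 5 comparisons in this order had 31 to 59, 4 to 20, 2 to 3, 1 to 3 and 1 to 3 higher, and 83 to 147, 44 to 87, 13 to 24, 5 to 16 and 0 to 0 lower. The family log2 fold change in Z18fl was -0.24 in the fit of 12 (edgeR adjusted p = 0.93), -0.076 with unique reads, 0.19 by aligned fragments, 0.14 with either strand and -0.25 to 0.0097 with 1 library left out. In Z18trunc it was 0.24 by aligned fragments, 0.20 with either strand and -0.18 to 0.075 with 1 left out, in Z18truncZnFmut -0.096 to 1.01 with 1 left out, and for Z18trunc against Z18fl 0.048 by aligned fragments and -0.16 to 0.078 with 1 left out. By aligned fragments the subfamilies L2, L2a, L2b and L2c turned positive, at 0.34, 0.26, 0.095 and 0.14 for Z18fl, 0.35, 0.32, 0.12 and 0.20 for Z18trunc and 0.98, 0.92, 0.56 and 0.68 for Z18truncZnFmut. With either strand the subfamily L2 was 0.027 in Z18fl and 0.084 in Z18trunc, the share of element counts in Z18fl 0.035 above Clover, the log2 ratio to MIR in Z18fl 0.0086 above it and that to CR1 in Z18trunc 0.095 above it. With either strand L2b and L2c lost their calls in Z18fl and Z18trunc, and with 1 library left out the highest edgeR adjusted p of their Z18trunc falls was 0.093 and 0.19. The cause of these shifts was not tested. The replicate number did not pair the libraries, as libraries of the same number had correlated deviations of -0.078 to 0.098 and those of other numbers -0.064 to 0.086, and with it as a replicate block the higher and lower loci numbered 37 and 107, 10 and 62, 2 and 23, 1 and 13, and 2 and 0. Of 789 alternatives for named loci 697 kept the call and 92 lost it. Settings that gave no adjusted p for a locus, as when it failed the filter, were not counted, so the share kept may be too high. Most L2 elements had too few reads to be tested, so these results concern the deepest ones.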
